A study of Sus scrofa with 6 samples.

Results

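The genes described here carry or handle oxygen, heme and iron in skeletal muscle: MB, FTH1, FTL, TFRC and HMOX1, together with the probes whose description names myoglobin, a hemoglobin subunit, ferritin, transferrin receptor protein 1 or heme oxygenase. A probe was a member if its gene name was 1 of the 5 member genes, if its description held that symbol in brackets, or if its description held 1 of those names. The rule found 23 of the 43603 probes on the array, under 12 of the 40839 names in the files. MB, TFRC and HMOX1 had 1 probe each, FTL had 3, FTH1 had 10, and 7 probes entered through their description alone. Of the 23 probes, 18 were well above background on all 3 arrays of at least 1 muscle and were tested, and 16 were well above background on all 6 arrays.

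RNA was measured in longissimus dorsi muscle (LDM), a pale glycolytic back muscle, and psoas major muscle (PMM), a red oxidative loin muscle, of 3 female Landrace pigs aged 210 days. The pigs shared a diet, were held without feed for a day before slaughter, were stunned and bled, and both muscles were taken right after bleeding. Each muscle had 3 one-colour Agilent arrays, numbered as replicates 1 to 3. No treatment, transgene or other allele separated the groups, so the only contrast was muscle against muscle. The extraction note in the labels speaks of adipose tissue, whereas source and tissue labels name the muscles. All 9 skeletal muscle markers with a named probe (ACTA1, CKM, DES, MYLPF, MYOT, TTN, CASQ1, RYR1 and MYOD1) were well above background on all 6 arrays. The labels do not say which pig gave which array, so the p-values below measure the spread between these samples. With the replicate number as a block, they measure instead the spread of the differences between same-numbered arrays.

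Myoglobin is the heme protein of muscle fibres that binds oxygen, eases its diffusion to mitochondria and gives red muscle its colour. A fibre makes heme from iron that enters through the transferrin receptor, keeps spare iron inside ferritin shells built of heavy and light chains, and releases iron from worn heme through heme oxygenase. Hemoglobin is made by red cell precursors, so its transcript in a muscle sample marks the blood left in it. Iron-regulatory proteins are known to stabilise the TFRC transcript when iron is scarce and to block translation of the ferritin transcripts, which leaves ferritin RNA a weak guide to ferritin protein.

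The MB and TFRC probes, which carry the largest differences of the tested member probes, are printed here, 5′ to 3′, as deposited. FTH1 probes P303704 and P237437 and FTL probe P257774 are printed beside them. Each is 60 bases long. The capital letter in the FTH1 sequences marks the single base at which both probes differ in the 52 bases they share, T36A when positions are counted from the 5′ end of probe P303704.
MB probe: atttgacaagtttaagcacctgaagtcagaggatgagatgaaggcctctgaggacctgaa
TFRC probe: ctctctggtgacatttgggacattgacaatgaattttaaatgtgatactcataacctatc
FTH1 probe P303704: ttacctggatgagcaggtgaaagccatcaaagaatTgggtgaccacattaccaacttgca
FTH1 probe P237437: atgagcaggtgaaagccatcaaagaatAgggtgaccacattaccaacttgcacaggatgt
FTL probe P257774: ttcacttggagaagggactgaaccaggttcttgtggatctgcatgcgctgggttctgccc

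MB had the largest difference of the member genes. The myoglobin probe read 7934, 11902 and 8127 intensity units in LDM replicates 1, 2 and 3, and 35753, 16760 and 22188 units in PMM replicates 1, 2 and 3. Every PMM array lay above every LDM array. On the normalized scale, which is the log2 of the intensity minus the array's own 75th percentile on that scale, LDM averaged 3.64 ± 0.10 (SD, n = 3) and PMM 5.11 ± 0.76 (SD, n = 3). The LDM arrays were close together, spanning 0.21 log2 units, whereas the PMM arrays spanned 1.51.

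The limma fit put MB in PMM 1.47 log2 units above LDM (standard error 0.40, 95% interval 0.54 to 2.39), which is a ratio of 2.77. Over 3284 named genes with muscle as the only term its adjusted p was 0.988, and no gene passed (0% called, 121 genes at an unadjusted p under 0.05). With the replicate number as a block, 6.49% of the genes were called, and MB was among them with an adjusted p of 0.0046. In the same blocked fit over 25835 probes, where 0.0658% of the probes were called, MB had an adjusted p of 0.25. The standard error of MB was 0.26 in the blocked gene fit and 0.34 in the blocked probe fit. In every fit here limma draws the spread of a gene or probe towards that of all in the fit. The p-values and intervals with the block therefore do not rest on 3 pair differences alone. Without the block 0.031% of the probes were called. No member probe was called in either probe fit, and MB was the only 1 of the 18 with an unadjusted p under 0.05 without the block, as 2.63% of all tested probes had. Exchanging the muscle labels of the MB values in every possible way, an exact permutation test (two-sided), gave p = 0.1, the smallest that 3 arrays against 3 allow.

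MB was also the only member probe whose muscles did not overlap. Among all tested probes 3.11% lay wholly higher in PMM and 2.89% wholly lower. Within replicate numbers the PMM minus LDM difference was 2.36 in pair 1, 0.65 in pair 2 and 1.39 in pair 3. All 3 differences pointed to PMM, but their sizes were far apart. With PMM replicate 1 left out the fitted difference was 1.07, and without both arrays of pair 1 it was 1.02 with the block (adjusted p = 0.021). MB was no longer called with the block without pair 3 (adjusted p = 0.23) or after quantile normalization (adjusted p = 0.12), and under both settings no gene was called.

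**Figure D1:**
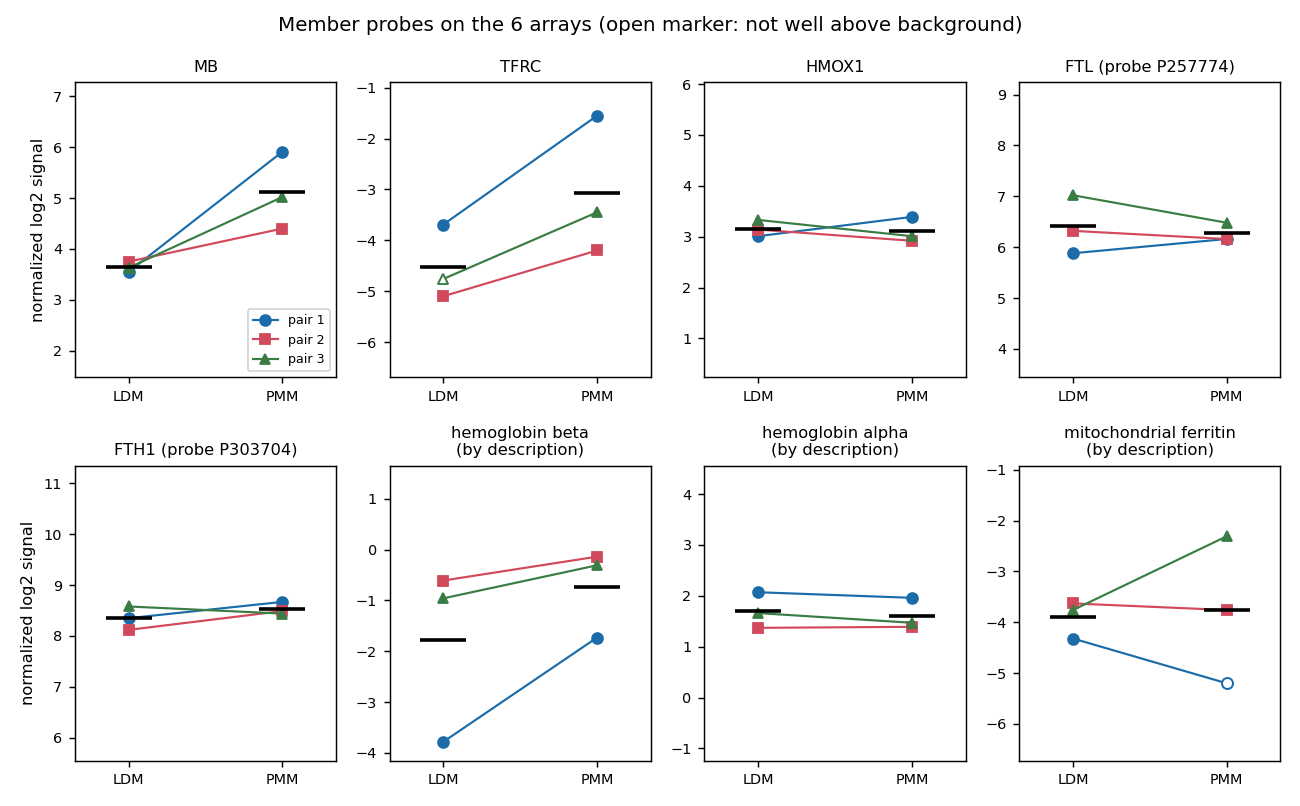
Normalized log2 signal (y axis) of 8 member probes in LDM and PMM (x axis), with each line joining the arrays of 1 replicate number, a bar at each muscle's mean (n = 3) and an open marker where the probe was not well above background. MB rises along all 3 lines with no overlap, TFRC and the hemoglobin beta probe rise along all 3 with overlap, the FTL, FTH1, HMOX1 and hemoglobin alpha panels are near level, and the mitochondrial ferritin lines run in both directions.

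TFRC encodes the receptor that brings transferrin-bound iron into the cell. Its probe was dim, at 52.5, 25.7 and 24.3 units in LDM replicates 1, 2 and 3 and at 203, 43.2 and 62.7 units in PMM replicates 1, 2 and 3. It was well above background on all 3 PMM arrays and on 2 of the 3 LDM arrays, replicate 3 being the exception, so the LDM mean rests partly on a value near the limit of detection, and TFRC entered the fits through PMM, the muscle where it read higher. LDM replicate 1 lay above PMM replicate 2 on the normalized scale (-3.69 against -4.20), and the muscles overlapped. LDM averaged -4.52 ± 0.73 and PMM -3.07 ± 1.36 (SD, n = 3 each).

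TFRC differed by 1.45 log2 units (standard error 0.68, 95% interval -0.10 to 3.01, adjusted p = 0.999), and the exact two-sided permutation p was 0.2. The difference within pairs was 2.14, 0.90 and 1.31 for replicates 1, 2 and 3, again with the largest in pair 1. Array 1 of each muscle was the brightest of its muscle, so the block removed much of the spread. With the block TFRC was called over the named genes (adjusted p = 0.0021, 95% interval 0.96 to 1.95) and not over all probes (adjusted p = 0.20), and the call was lost without pair 3 (adjusted p = 0.21). Background handling bore on its size. After normexp background correction, another way to remove background light, the difference was 0.58, and leaving out PMM replicate 1 gave 0.69.

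FTH1, the ferritin heavy chain that oxidises iron for storage, was among the brightest signals on the arrays and differed little between the muscles. Its 10 probes read between 71059 and 617149 units over the 6 arrays. All 10 had a log2 fold change above 0, between 0.01 and 0.26 with a median of 0.14 against -0.013 over all tested genes, but 3 of the 10 stayed above 0 after normexp correction (median -0.027) and 7 of the 10 after quantile normalization. None was called with or without the block, and the exact two-sided permutation p ran from 0.3 to 1.0. The 95% intervals reached at most from -0.66 to 0.98 without the block and from -0.41 to 0.77 with it, so a change of up to about these sizes could not be seen at 3 arrays per muscle.

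The FTH1 probes moved together within pairs. All 10 were higher in PMM in pair 1 (median 0.21) and in pair 2 (median 0.28), and all 10 were lower in PMM in pair 3 (median -0.14). The median over all tested genes was 0.12, 0.04 and -0.20 in the same pairs, so pair 3 as a whole leaned to LDM on this scale. The 10 probes are not 10 measurements. A set of 6 overlapping probes tiles a single stretch of 122 bases. P303704 and P237437 together cover 68 bases and share 52 of them, and P239260 and P417204 stand alone. Binding of these probes to near-identical copies of the gene was not tested.

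The tiled FTH1 probes were read close to the scanner's ceiling. Their intensities were 66.3% to 95.5% of the array's saturation value, and those of the 4 other FTH1 probes were 11% to 44.2%. No spot of any member was flagged as saturated, but 4 of the 36 spots of the tiled probes held some saturated pixels, up to 43.4% of the pixels in a spot, and none of the 24 spots of the other probes did. The log2 fold changes were 0.01 to 0.14 for the tiled probes and 0.15 to 0.26 for the others. The part of the ceiling in these smaller differences was not tested.

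FTH1 probe P303704 shows the values of a probe away from the ceiling. It read 221807, 245658 and 251825 units in LDM replicates 1, 2 and 3 and 242742, 286015 and 237812 units in PMM replicates 1, 2 and 3. The muscles overlapped, with PMM highest in replicate 2 and LDM highest in replicate 3. Its log2 fold change was 0.19 (standard error 0.29, 95% interval -0.48 to 0.85). Probe P237437, which differs from it by the shift and the 1 base printed above, gave 0.23 (standard error 0.30, 95% interval -0.45 to 0.92).

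**Figure D2:**
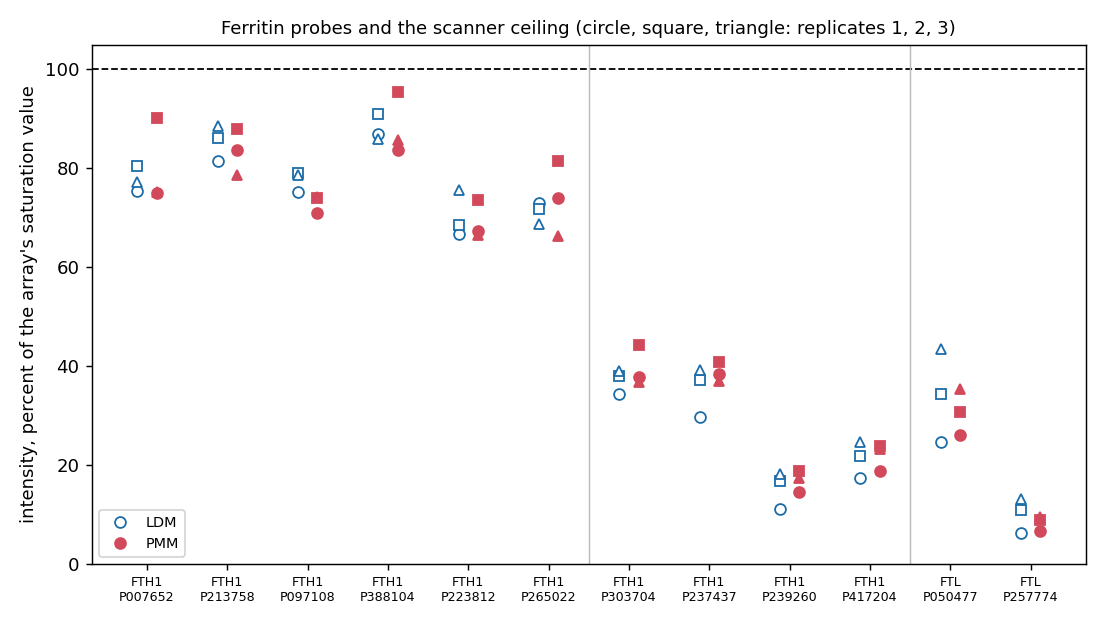
Intensity of each tested ferritin probe as a percent of its array's saturation value (y axis, linear from 0, dashed line at the ceiling), with LDM as open blue and PMM as filled red markers and 1 marker per array. The 6 overlapping FTH1 probes at the left sit at 66.3% to 95.5%, the 4 other FTH1 probes at 11% to 44.2%, and the FTL probes at the right at 6.2% to 43.4%.

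FTL, the ferritin light chain that helps the iron core form, showed no difference that could be detected. Probe P257774, printed above, read 39876, 70568 and 85380 units in LDM replicates 1, 2 and 3 and 42444, 56895 and 61007 units in PMM replicates 1, 2 and 3. LDM held both the lowest and the highest array. Its difference was -0.14 on the log2 scale (standard error 0.36, 95% interval -0.97 to 0.69), and the exact two-sided permutation p was 0.8. The brighter probe P050477 read 159437, 222793 and 280118 units in LDM and 168152, 198658 and 228477 units in PMM in the same order, and in the gene fit it differed by -0.03 (standard error 0.33, 95% interval -0.79 to 0.73). Both FTL probes were higher in PMM in pair 1 and lower in pair 3, and in pair 2 they differed by -0.16 and -0.01.

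The last FTL probe, P330868, behaved unlike the others and was not tested. It read 19.4, 17.3 and 5.9 units in LDM and 12.2, 17.7 and 1105 units in PMM, and was well above background on LDM replicate 1 and PMM replicate 3 alone. A single array, PMM replicate 3, was therefore high, while both other FTL probes lay within their LDM range on that array. Its sequence overlaps none of the other member probes on either strand. It begins as below, its first 30 bases being shown because its identity as FTL rests on the file's name alone. The other FTL probes take their name from the same files, with a description that begins alike.
FTL probe P330868, bases 1 to 30: agaagtgttgtttttccagcacctaaatac

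Mitochondrial ferritin, a ferritin imported into mitochondria, was named by 2 probes. The probe described by the rat protein read 34.0, 71.4 and 48.6 units in LDM and 16.2, 58.8 and 138 units in PMM replicates 1, 2 and 3. PMM held the lowest and the highest array, and replicate 1 of PMM was not well above background. PMM minus LDM was 0.15 on the log2 scale (standard error 0.65, 95% interval -1.34 to 1.63), lower in PMM in pairs 1 and 2 and higher in pair 3. The probe described by the bovine protein was well above background on LDM replicate 1 alone, at 37.7 units, and was not tested.

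HMOX1, the heme oxygenase that opens the heme ring and frees its iron, was measured by 1 probe on 5 spots per array. It averaged 5483, 7774 and 6638 units in LDM replicates 1, 2 and 3 and 6243, 6025 and 5523 units in PMM replicates 1, 2 and 3. The muscles overlapped over nearly their whole range. The fitted difference was -0.05 (standard error 0.28, 95% interval -0.70 to 0.60), the exact two-sided permutation p was 0.8, and the pairs differed by 0.38, -0.21 and -0.32. The remaining 3 member probes were not well above background on any array, at 2.4 to 7.3 units. They are described as a rat hemoglobin beta-2, as the rat iron-responsive element-binding protein 1 (found through the words ferritin repressor protein) and as a bacterial ferritin.

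**Figure D3:**
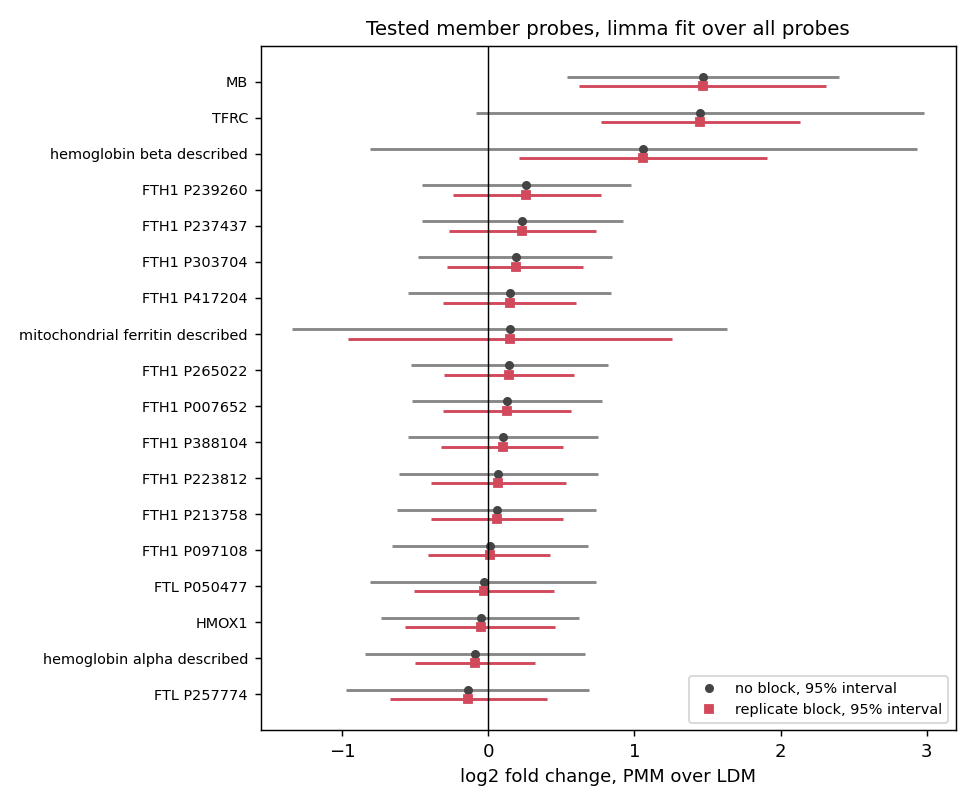
Log2 fold change of PMM over LDM (x axis) for the 18 tested member probes (y axis), as points with 95% intervals from the limma fit over all probes without the replicate block (grey) and with it (red). The intervals of MB lie above 0 in both fits, those of TFRC and the hemoglobin beta probe only with the block, and all ferritin, HMOX1 and hemoglobin alpha intervals include 0.

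The blood left in each sample could be read only in part. Of 22 erythrocyte markers 4 had a named probe (HBE1, HEMGN, TSPO2 and EPOR), and HBA, HBB, ALAS2, SLC4A1 and AHSP were among those with none. The adult hemoglobins entered through probe descriptions, so their identity rests on that text. The first 30 bases of both probes are given for that reason.
hemoglobin beta probe, bases 1 to 30: cctttagaaaaggaatcaagcttgattggc
hemoglobin alpha probe, bases 1 to 30: ttaaaggcagtatcttttgtactgtgaatc

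The probe described as pig hemoglobin subunit beta read 49.3, 578 and 339 units in LDM replicates 1, 2 and 3 and 179, 722 and 553 units in PMM replicates 1, 2 and 3. Replicate 1 was the lowest array in each muscle, and the muscles overlapped. Its log2 fold change was 1.06 (standard error 0.82, 95% interval -0.81 to 2.93) with an exact two-sided permutation p of 0.5. The pairs differed by 2.05, 0.48 and 0.65, all towards PMM. With the block the 95% interval was 0.21 to 1.91 (adjusted p = 0.37). Leaving out LDM replicate 1 alone gave a difference of 0.06, and leaving out both arrays of pair 1 gave 0.56 with the block.

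The probe described as hemoglobin subunit alpha-1/2 of the tapir ran otherwise. It read 2841, 2277 and 2087 units in LDM and 2309, 2083 and 1900 units in PMM replicates 1, 2 and 3, so replicate 1 was the highest array of each muscle where the beta probe was lowest. PMM minus LDM came to -0.09 on the log2 scale (standard error 0.33, 95% interval -0.84 to 0.66), with pair differences of -0.11, 0.03 and -0.19. The 2 hemoglobin probes thus ordered the arrays in opposite ways, and they do not give a single measure of blood.

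HBE1, an embryonic beta-like globin, was measured by 3 dim probes. The brightest read 21.2, 66.1 and 67.9 units in LDM and 53.4, 94.5 and 98.8 units in PMM replicates 1, 2 and 3. LDM replicate 1 was the lowest array on all 3 HBE1 probes, as on the hemoglobin beta probe. HBE1 differed by 0.89 (standard error 0.46, adjusted p = 0.999). It was called with the block over the named genes (adjusted p = 0.025). With the block over all probes it was not called (adjusted p = 0.31 for this probe, 0.57 and 0.40 for the others). Leaving out LDM replicate 1 alone reduced the difference to 0.40, and leaving out both arrays of pair 1 gave 0.58 with the block. The call over the named genes was lost without pair 1, 2 or 3 (adjusted p = 0.51, 0.10 and 0.21). The other HBE1 probes gave 0.66 and 0.95, and 1 of them was lower in PMM in pair 2 by 0.02 on the log2 scale. HEMGN, a nuclear protein of red cell precursors, gave 0.27 (standard error 0.36), higher in PMM in 3 of 3 pairs. Summed over the 6 erythrocyte probes, the level was 0.227 to 0.399 in LDM and 0.472 to 0.511 in PMM, in units of the array's 75th percentile intensity. That sum holds TSPO2 and EPOR, which were too dim to be tested and of which EPOR was higher in PMM in 0 of 3 pairs, and it leaves out the hemoglobin alpha and beta probes.

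The hemoglobin beta probe and HBE1 moved with MB in direction, and the hemoglobin alpha probe did not. In pair 1, MB, TFRC, the hemoglobin beta probe and HBE1 all had their largest difference, at 2.36, 2.14, 2.05 and 1.52. Pair 1 was also the only pair on different slides, and its differences over all tested genes spread the most, with an SD of 0.62 against 0.37 in pair 2 and 0.56 in pair 3. In pairs 2 and 3, MB differed by 0.65 and 1.39, the hemoglobin beta probe by 0.48 and 0.65 and HBE1 by 0.67 and 0.49. MB and the hemoglobin beta probe ordered the LDM arrays alike, but the hemoglobin beta probe spanned 3.17 log2 units there and MB 0.21. In PMM the array with the highest MB (replicate 1) had the lowest hemoglobin beta signal. Without LDM replicate 1 alone, MB differed by 1.42 and the hemoglobin beta probe by 0.06. Without both arrays of pair 1 and with the block, MB differed by 1.02 and the hemoglobin beta probe by 0.56. The part of blood in the MB and TFRC differences was not tested. Fewer red cells and less RNA in each of them cannot be told apart in bulk tissue, and the same holds for fibres.

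**Figure D4:**
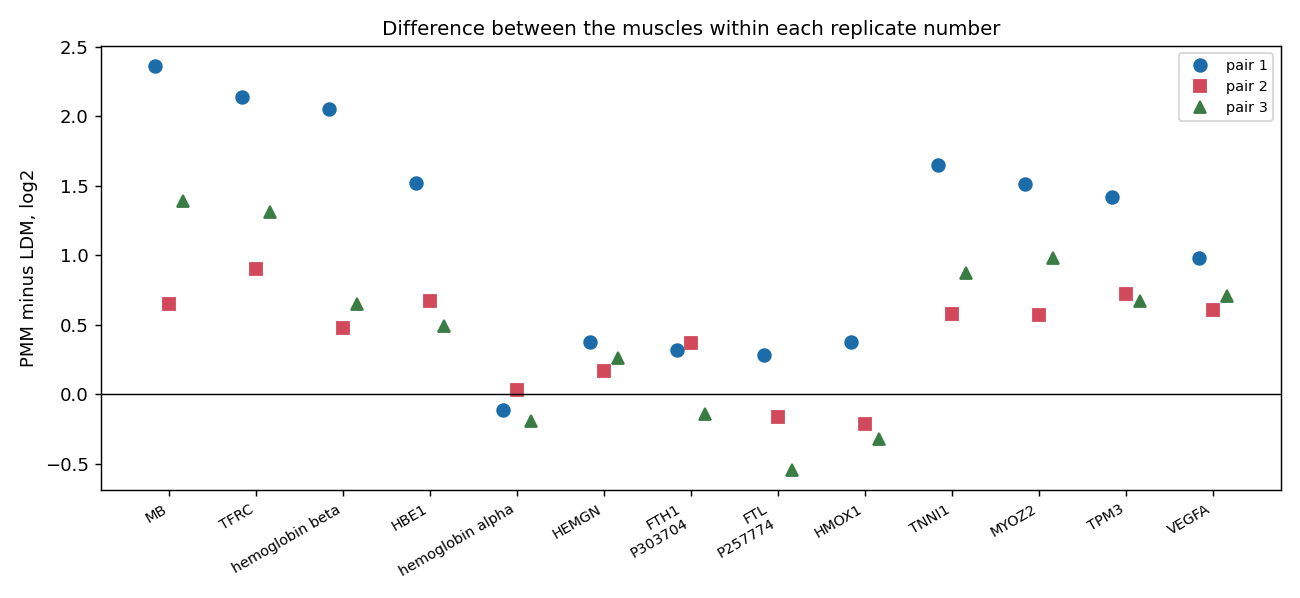
Difference PMM minus LDM in normalized log2 signal (y axis) within replicate numbers 1, 2 and 3 (marker shape and colour) for member probes, 2 erythrocyte markers, 3 slow fibre genes and VEGFA (x axis). MB, TFRC, the hemoglobin beta probe, HBE1, the slow fibre genes and VEGFA lie above 0 in all 3 pairs with pair 1 the highest, and FTL and HMOX1 lie above 0 in pair 1 alone.

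Of the genes for iron uptake, transport and storage, 12 of 29 had a named probe and all 12 were tested. The difference was above 0 for 5 and below 0 for 7, with a median of -0.02. None was called without the block, and TFRC alone was called with it (background 4.02% higher and 2.47% lower in PMM). LTF, the iron-binding lactoferrin, came next with 0.67 (standard error 0.35, adjusted p = 0.052 with the block) and did not overlap between the muscles, as 3.99% of the tested genes did not in that direction and 3.14% in the other. CYBRD1, a ferric reductase, gave -0.48 (standard error 0.33), lower in PMM in 3 of 3 pairs. The other 9, which include transferrin, hepcidin and the ferritins, lay between -0.36 and 0.28.

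IREB2, which encodes iron-regulatory protein 2, was the only tested gene of 3 iron sensors. It gave -0.29 (standard error 0.44), lower in PMM in 3 of 3 pairs and not called with the block (adjusted p = 0.46).

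Genes of heme synthesis, transport and breakdown were measured for 9 of 25. The difference was above 0 for 5 and below 0 for 4, the median was 0.09, and none was called in either fit. For the plasma proteins that capture spilled hemoglobin and heme, the values were -0.95 for HP, haptoglobin (standard error 0.56), and -0.61 for HPX, hemopexin (standard error 0.83). HP was not called with the block (adjusted p = 0.11) but was with the slide as a random block (-1.42, adjusted p = 0.026), and HPX turned to 0.46 without LDM replicate 3. HP was lower in PMM in 2 of 3 pairs and HPX in 1 of 3, and 6 further genes, HMOX1 among them, lay between -0.19 and 0.19.

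Iron-sulphur cluster assembly had 3 measured genes of 19, all above 0 and none called. GLRX5, a mitochondrial glutaredoxin that hands on clusters, gave 0.59 (standard error 0.42, adjusted p = 0.085 with the block) and the ferredoxin FDX1 0.09 (standard error 0.32). Of the genes for oxygen sensing and non-blood globins 7 of 14 were tested, 6 of them above 0, with a median of 0.21. Apart from MB, the angiogenic factor VEGFA was called with the block (log2 fold change 0.77, standard error 0.35, adjusted p = 0.024) and did not overlap between the muscles. Over all tested genes 4.02% were called higher in PMM with the block, and 3.99% lay wholly higher in PMM. VEGFA was not called with the block without pair 1, 2 or 3 (adjusted p = 0.34, 0.26 and 0.21). With the block after quantile normalization it was not called either (adjusted p = 0.09). Leaving out PMM replicate 1 gave 0.50 for VEGFA. The hypoxia-responsive factor EPAS1 gave 0.64 (standard error 0.35, adjusted p = 0.091 with the block), and of the remaining 4 genes the highest, ADM, gave 0.21.

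Other cell types were read through marker lists in the same fit. Of the slow fibre genes 8 of 8 lay above 0 (median 0.54), and TNNI1, MYOZ2 and TPM3 were called with the block at 1.03, 1.02 and 0.93. TPM3 gave 0.32 as the mean of all its probes. Fast fibre genes had a median of 0.08 over 9, and the 9 skeletal muscle markers one of 0.14. Saturated pixels were present in the spots of 8 of these fast fibre genes, 2 of the skeletal muscle markers and 1 of the slow fibre genes, so the scanner's ceiling bears on these medians and its part in them was not tested. Endothelial markers lay above 0 for 6 of 6 (median 0.34), and none was called. Adipocyte markers lay below 0 for 6 of 8 (median -0.47). PLIN1 at -1.03, CIDEC at -0.86 and CIDEA at -0.78 were called lower with the block, and LPL, which muscle fibres also express, was called higher at 1.12. PLIN1 was not well above background on PMM replicate 1 (13.1 units). It entered the fits through LDM, the muscle where it read higher. PLIN1 turned to 0.16 after normexp correction, and without PMM replicate 1 PLIN1 was -0.30 and CIDEC -0.37. CIDEC was -0.45 without LDM replicate 2. With the block without pair 1, TNNI1, MYOZ2, TPM3, PLIN1, CIDEC and LPL were not called (adjusted p from 0.17 to 0.38), and LPL was 0.66. Leukocyte and platelet markers had a median of 0.04 over 4 and macrophage markers one of -0.05 over 8. Summed over a list, the level ran from 88.2 to 289.5 in LDM and from 156.4 to 284.5 in PMM for endothelial markers, and from 20.0 to 90.3 and from 24.5 to 76.1 for macrophage markers. The part of these cell types in the MB and TFRC differences was not tested.

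**Figure D5:**
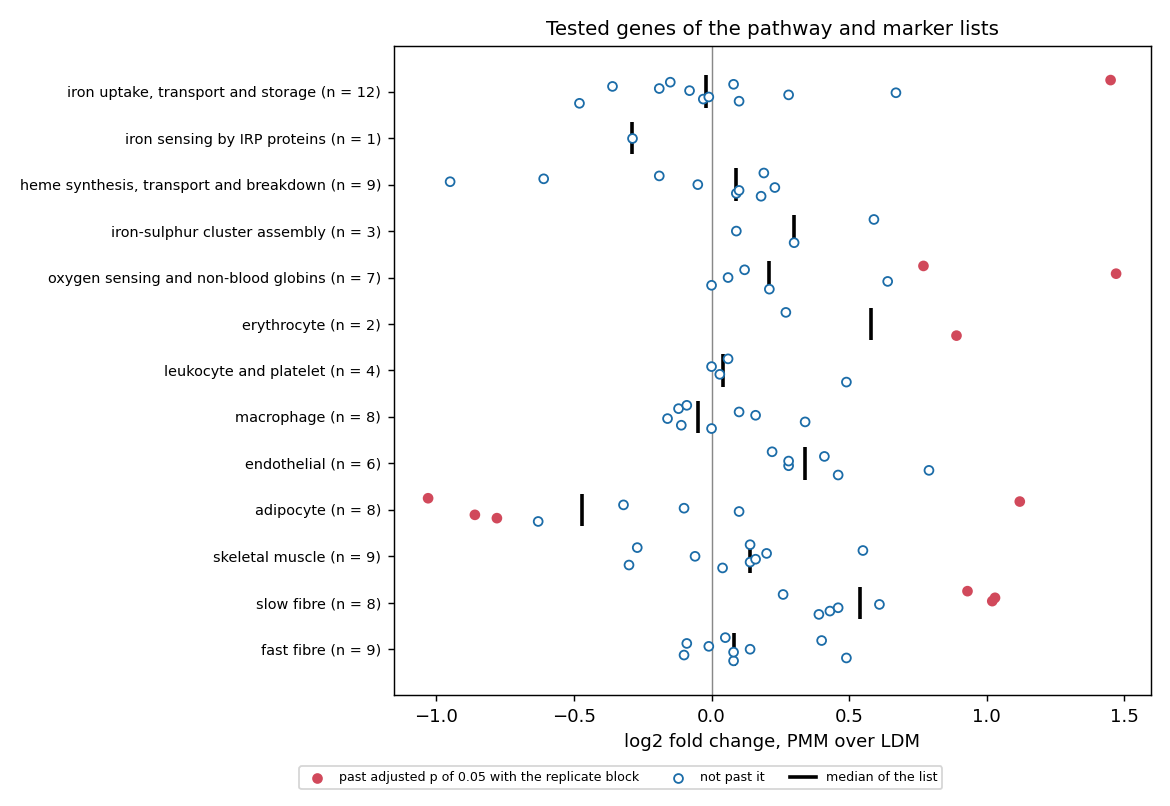
Log2 fold change of PMM over LDM (x axis) for each tested gene of the pathway and marker lists (y axis), filled red where the adjusted p with the replicate block was under 0.05, with a bar at each list's median. TFRC stands apart from an iron list centred at -0.02, MB and VEGFA lead the oxygen list, and all slow fibre and endothelial markers lie above 0.

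The genes whose signal followed MB most closely over the 6 arrays, out of 3273 compared, were TNNI1 (Pearson r = 0.990), TPM3 (r = 0.955, for its brightest probe), AFGF (r = 0.954), GLRX1 (r = 0.953) and MYOZ2 (r = 0.953). TNNI1, TPM3 and MYOZ2 encode proteins of the slow fibre's contractile apparatus. Both muscles and the large pair 1 difference enter these coefficients, and the arrays come from 3 pigs, so they are a description of 6 arrays. Like MB, TNNI1 had its largest pair difference in pair 1 (1.65) and its smallest in pair 2 (0.58).

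The same comparison was made for FTH1, FTL and HMOX1, but not for TFRC, which was not well above background on all 6 arrays. FTH1 ran closest to BTG2 (r = 0.991), TPT1 (r = 0.983) and LCLAT1 (r = 0.971), and FTL to COL6A1 (r = 0.996), UBE2C (r = 0.992) and RET (r = 0.992). HMOX1 ran closest to LOC448984 (r = 0.968), described as 18S ribosomal RNA, LOC100152046 (r = 0.962) and NELFE (r = 0.949). None of the genes named as closest to these 4 members belonged to the iron, heme or erythrocyte lists. Those lists are a small share of the 3273 genes compared, so this absence says little about the members. Tested genes numbered 12 for iron uptake, 1 for iron sensing, 9 for heme, 3 for iron-sulphur clusters and 2 for erythrocytes.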

How the data were processed

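The 6 deposited scanner files hold Cy3 intensities per spot, made by the authors with Agilent Feature Extraction 10.5.1.1 (gProcessedSignal, background-subtracted), and the deposited series table repeats these intensity values. The labels name no genome build. Intensities were put on the log2 scale, outlier spots were dropped, repeat spots averaged and each array's 75th percentile (595 to 882.7 units) subtracted. A probe had to be well above background on every array of LDM or of PMM, and such probes were fitted with limma 3.58.1 in R 4.3.3 (two-sided, Benjamini-Hochberg), over 25835 probes and over the brightest probe of each of 3284 genes. Between 58.4% and 72.4% of the probes were well above background per array, and the number of arrays limits the precision. Names came from the files and RefSeq tables (5802 probes, 4043 genes).

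The methods state no model for the arrays, so muscle was the only term. The replicate block was an alternative, and same-numbered arrays deviated together (r = 0.62, 0.70 and 0.56 for numbers 1, 2 and 3), so the numbers were taken as pairs. Both arrays of pair 1 lay on different slides, those of pairs 2 and 3 on a shared slide, and each pair had its own scan day. The limma fit alone, and not the steps before it, was tested on simulated normalized values. In them the fitted changes followed those put in. There the blocked fit over all probes called none of the probes with the largest change. The simulated arrays did not deviate together within pairs, as the real ones did. How many changes the blocked fit over all probes misses in these data was therefore not tested.

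Members, gene lists and tests were chosen with earlier results of these data known. The text names every member, up to 3 genes per list with the largest fold change, and the genes most correlated with a member. Alternatives were other centring, quantile normalization, normexp (offset 50), other detection filters, spots and probe rules, the slide as a block, and leaving out arrays. CIDEA was named after its values were seen. Some list genes are not reported here.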

Additional observations from a re-analysis of the deposited data

How the results depend on the processing

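Over the 21 alternatives run, 17 of 28 tracked values kept their direction, MB, TFRC, HBE1 and the hemoglobin beta probe among them. MB lay between 1.02 and 1.88 with adjusted p from 1.9e-05 to 1, and TFRC between 0.58 and 2.02 with adjusted p from 0.00012 to 1. A replicate block called both (adjusted p = 0.0046 and 0.0021), as did a random slide effect (0.017 and 0.027) and the block without pair 1 or pair 2. HP was called with a random slide effect and with the block without pair 1 (-1.51, adjusted p = 5.3e-05), and HPX under the latter (-0.95, adjusted p = 0.042). A block fit without a pair holds 2 pairs only, and its adjusted p also draws on the spread of all genes. The lowest adjusted p of MB and of TFRC came from such a fit, the one without pair 2. Neither MB nor TFRC was called with the block without pair 3 (adjusted p = 0.23 and 0.21) or with the block after quantile normalization (0.12 and 0.11). Every setting that joins the block with a left-out pair or with quantile normalization was chosen after seeing the data. The cause was not tested.

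No gene was called without a block. With the replicate block, which uses the pairing, 213 genes and 17 probes were called, with the slide 176 and 300, and with the block without pair 1 117 and 790, without pair 2 138 and 1, and without pair 3 or after quantile normalization 0 and 0. The 8 probes called without a block became 1 after normexp correction, and 0 with the percentile over probes detected on all arrays, with no detection filter, with probes detected on all 6 arrays only, or with outlier spots kept. Leaving out 1 array called 0 to 1 probes and 0 genes.

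Some values changed sign, PLIN1 (-1.03) and HPX (-0.61) among them. After normexp correction FTH1 P388104 was -0.049, the median FTH1 probe -0.027, CYBRD1 0.015, FDX1 -0.062 and PLIN1 0.16. FDX1 was also -0.0033 with the slide as a block and -0.022 with the block without pair 1. FTL P050477 was 0.001 with the percentile over probes detected on all arrays. With the block without pair 3, HMOX1 was 0.081, HPX 0.12, FTL P050477 0.13, FTL P257774 0.061 and the rat mitochondrial ferritin probe -0.50, and without pair 2 HMOX1 was 0.029. Leaving out 1 array at a time gave -0.19 to 0.040 for HMOX1, -1.23 to 0.46 for HPX, -0.61 to 0.065 for IREB2, -0.074 to 0.34 for FDX1, -0.19 to 0.24 for FTL P050477, -0.40 to 0.17 for FTL P257774, -0.010 to 0.16 for FTH1 P388104, -0.27 to 0.092 for the hemoglobin alpha probe and -0.58 to 0.87 for the mitochondrial ferritin probe.

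TFRC and the mitochondrial ferritin probe have no value when only probes detected on all 6 arrays are kept. The main limits are 3 arrays per muscle, dim TFRC and HBE1 probes, and the scanner's ceiling for FTH1.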
